A study of Mus musculus with 6 samples.

Results

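The genes described here were the enzymes of steroid and xenobiotic metabolism that carry the gene names Cyp, Ugt, Sult or Hsd followed by a number. They are the cytochrome P450s, the UDP-glucuronosyltransferases, the cytosolic sulfotransferases and the hydroxysteroid dehydrogenases. The rule uses gene names and leaves out Cyp51, Hsd17b7 and the Cyp26 genes. It uses no measured value, but it was set with earlier results of these data known. The rule found 156 of the 23420 genes in the count tables: 98 Cyp, 21 Ugt, 18 Sult and 19 Hsd genes.

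Reads per gene were counted in mice on day 4 of pregnancy at 8 pm, shortly before blastocysts attach, in 2 tissues with 3 libraries each. The luminal layer of the uterus was cut out by laser microdissection and RNA of several females was pooled into each library, and blastocysts flushed from the horns were pooled in the same way. The control females were Lif-floxed/floxed and received PBS. The Lif eKO females were Lif-floxed/floxed with Ltf-Cre/+, in which the Ltf promoter drives Cre in the uterine epithelium, and received PBS. The last group had the same eKO genotype and was injected with recombinant Lif (rLif), 20 µg per head, once at 10 am and again at 6 pm, with dissection 2 h later. All 3 embryo libraries were labelled Lif-floxed/+, so they shared the labelled Lif genotype and differed in the uterus they came from and in its treatment. Blastocysts of Ltf-Cre/+ females can also inherit Cre, which these labels do not give. The comparisons address which transcripts differ in the epithelium and the blastocyst when the epithelial deletion is present and when Lif is supplied. Each group was 1 library, so no difference had a replicate check, library and group cannot be told apart, and no p-value is given.

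Totals ran from 23850565 to 28460465 counts in the luminal libraries and from 18996158 to 19638852 in the embryo libraries. The targeted gene did not bear out the luminal labels. Lif (chromosome 11, 4257568 to 4272514, in GRCm38/mm10 as are all positions here) showed 0 counts for the control label, 28 for the eKO label and 0 for the label of eKO after rLif, and 1447, 1736 and 1250 in the embryo libraries. Before attachment Lif is known to be made in the uterine glands. Counts of 0 in a luminal layer thus do not by themselves speak against a control label. For the eKO label, the floxed stretch covers only part of Lif, and the deletion is epithelial. These 28 counts over the whole gene therefore cannot show whether it was deleted. The luminal libraries are therefore called control-labelled, eKO-labelled and rLif-labelled (eKO given rLif), and their values are given in this order. Every luminal direction below rests on labels that Lif counts did not bear out and cannot decide. All 10 listed markers of luminal epithelium had counts in each luminal library. In the embryo libraries 9 of these 10 also had counts, with Wnt7a at 0. Their summed level was 5389, 8015 and 5743 CPM in the luminal libraries and 8072, 8342 and 7833 CPM in the embryo libraries, where CPM are counts relative to the TMM-scaled library size. Blastocysts have an epithelium of their own, and Krt8 is also on the list of 6 trophectoderm markers. That list summed to 849, 1733 and 613 CPM in the luminal libraries, where Cdx2 alone was at 0 (for the control and rLif labels), and to between 5023 and 5373 CPM in the embryo libraries. The 5 inner cell mass markers summed to 36.0, 18.8 and 30.1 CPM in the luminal libraries, with Pou5f1, Nanog and Fgf4 at 0 in all and Sox2 at 0 for the rLif label, and to between 645 and 864 CPM in the embryo libraries. The 5 primitive endoderm markers went the other way, with 1179, 1790 and 2619 CPM in the luminal libraries and between 536 and 629 CPM in the embryo libraries. Between the controls, Sox17 and Sox7 were called higher in the luminal layer, and Gata4, Gata6 and Pdgfra lower. Summed over 10 stromal markers, the level was 910, 1348 and 909 CPM in the luminal libraries, and over 6 smooth muscle markers it was 70.4, 50.5 and 31.4. The immune markers summed to 1068, 972 and 1073 CPM there, and the endothelial ones to 52.8, 71.3 and 94.2. Glandular markers summed to 5.58, 5.75 and 13.4 CPM. Their part in the luminal differences was not tested. In bulk tissue, fewer cells of a type and less RNA per cell cannot be told apart.

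These enzymes work in sequence. P450s oxidise steroids, sterols, fatty acids and foreign compounds with electrons passed on by reductases and cytochrome b5. Hydroxysteroid dehydrogenases switch steroids between active and less active forms, and several enzymes that carry this name act on fatty acids or bile acids instead. Sulfotransferases and glucuronosyltransferases then attach sulfate or glucuronic acid, which makes the product soluble and usually inactive. In the uterus on these days the ovarian hormones progesterone and estrogen set receptivity, and enzymes of the epithelium and stroma change how much active hormone reaches its receptor.

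Most members had few or no reads. Of the 156 members, 57 had at least 10 counts over the 3 luminal libraries and 47 over the 3 embryo libraries, with 32 in both and 84 in neither, and 56 had 0 counts in all 6 libraries. The shares were 36.5% in the luminal layer and 30.1% in blastocysts, against 67.0% and 63.5% of all genes. Detection differed between the families. Of 19 Hsd genes, 10 were detected in the luminal layer and 11 in blastocysts, whereas of 50 Cyp2 genes, 13 and 12 were detected. None of the 10 Ugt2 genes reached the limit in the luminal layer, and 2 did in blastocysts.

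In both tissues a few members held most of the level. On a scale of CPM per kilobase of exon, which compares levels between genes, Sult1d1 led in the luminal layer. It is a sulfotransferase of catecholamines and other small phenols. It stood at 305, 252 and 241 in the luminal libraries, and its mean of 266 was 33.7% of the members' summed level. The next were Hsd17b10 at a mean of 168, a mitochondrial enzyme of isoleucine breakdown, and Hsd3b7 at 74.8, an enzyme of bile acid synthesis. Hsd17b12 at 56.2, which lengthens fatty acids, Sult1a1 at 48.3, which sulfates phenols, and Hsd11b2 at 36.6, which inactivates glucocorticoids, followed them. In blastocysts the leader was Cyp2s1, a P450 of epithelia that dioxin induces. Its level per kilobase was 138, 156 and 246 in the control, eKO and rLif libraries, and the mean of 180 was 45.5% of the members' level. Hsd17b12 at 72.0, Hsd17b10 at 42.7, Hsd17b6 at 23.4, an oxidase of androgens and retinol, and Hsd17b4 at 15.5, a peroxisomal enzyme of fatty acid breakdown, came next. All members together took 1615, 1468 and 1408 CPM in the luminal libraries and 743, 775 and 993 CPM in the embryo libraries.

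Most enzymes that make steroid hormones from cholesterol had almost no reads. Cyp11a1, which cuts the cholesterol side chain, had 2, 0 and 0 counts in the luminal libraries and 6, 0 and 4 in the embryo libraries. Cyp17a1, Cyp19a1 (aromatase), Hsd3b1 and Hsd3b6 had fewer than 10 counts in each tissue. Of the 12 members in this group, only Cyp21a1 and Hsd3b3 were detected in the luminal layer and only Cyp11a1 in blastocysts. Cyp21a1, the adrenal steroid hydroxylase, had 101, 99 and 54 counts in the luminal libraries. The estrogen sulfotransferase Sult1e1 and the vitamin D hydroxylase Cyp24a1 were below 10 counts in both tissues.

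The luminal libraries were compared in pairs. A gene was called when the exact 95% interval of the ratio of 2 libraries did not reach back inside log2 ratios of -1 to 1, which is a statement on counting error only. In the eKO-labelled library against the control-labelled one, 10 members were higher and 5 lower of 57 tested, with 8.08% of all genes called higher and 9.15% lower. In the rLif-labelled library against the eKO-labelled one, 4 were higher and 13 lower, against 7.88% and 7.77% of all genes. In the rLif-labelled library against the control-labelled one, 1 was higher and 6 lower, against 4.12% and 5.04%. The median log2 ratio of the members was 0.27, -0.32 and -0.05 in these comparisons, and that of all genes 0.01, -0.01 and 0.01. The comparisons share libraries, so their counts are not independent. In all, 23 of the 57 members passed the limit in at least 1 comparison and 34 in none. The share of all genes called in at least 1 comparison was not computed, so this count cannot be set against it. The eKO-labelled library held the highest of the 3 values for 30 of the 57 members (52.6%), against 37.4% of all genes, and the rLif-labelled library held the lowest for 25 (43.9%), against 29.1% of all genes. Part of the share at the highest value was built into detection. Some members, such as Cyp2c38 (0, 11 and 0 counts), Cyp46a1 (3, 13 and 1) and Ugt8a (2, 15 and 7), reached 10 counts only through the eKO-labelled library. Shares without such genes were not computed.

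**Figure D1:**
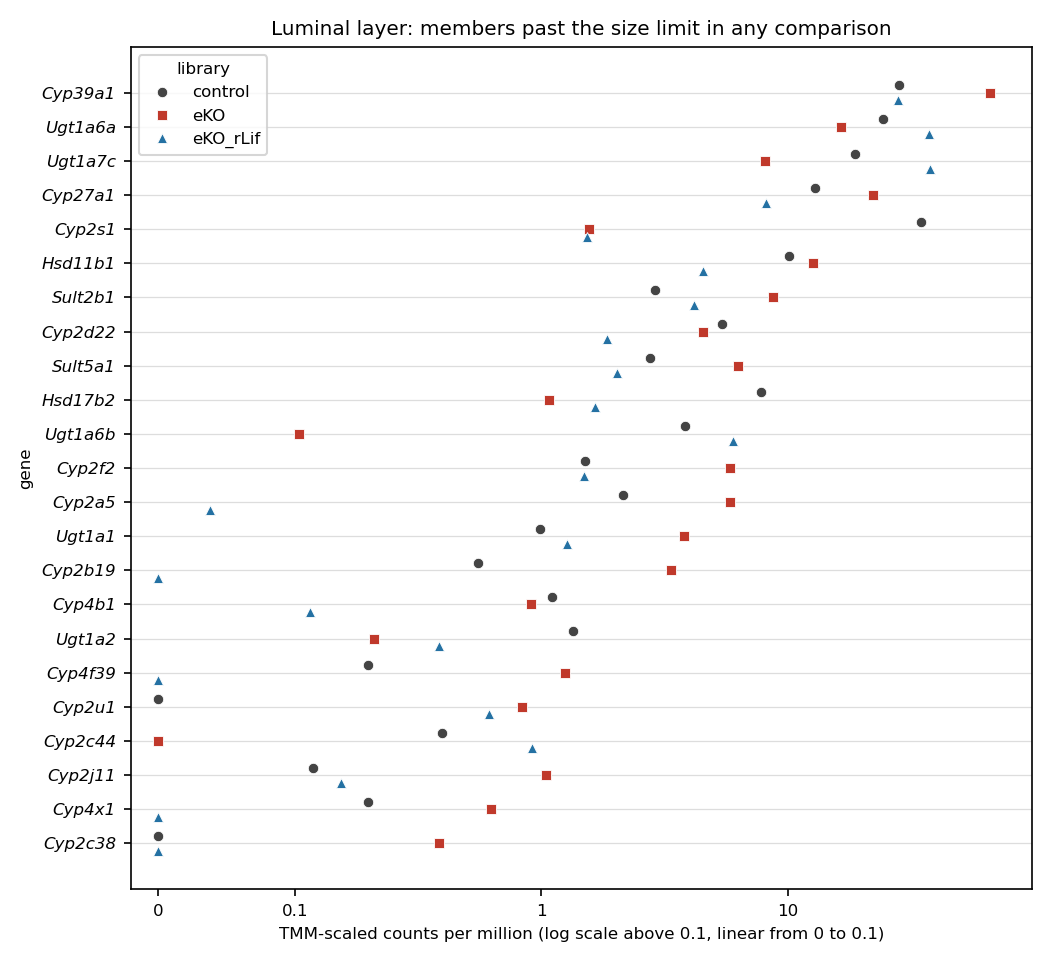
Scaled CPM (x axis, log scale above 0.1 and linear below) of the 23 members past the size limit in at least 1 luminal comparison, 1 point per library, with no error bars since each group is 1 library. The red squares of the eKO-labelled library lie far to the left of the control for Cyp2s1, Hsd17b2 and Ugt1a6b and far to the right for Cyp2b19, Cyp2f2 and Ugt1a1.

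Among the dehydrogenases that switch steroids between active forms, Hsd17b2 stood out. It oxidises estradiol to estrone and testosterone to androstenedione, and lies on chromosome 8 from 117701946 to 117759029. It had 197 counts in the control-labelled library, 31 in the eKO-labelled one and 43 in the rLif-labelled one. Both eKO libraries were far below the control. The log2 ratio to control was -2.85 (95% interval -3.45 to -2.30) without rLif and -2.24 (-2.75 to -1.76) with it. Between the eKO libraries the log2 ratio was 0.61 (-0.09 to 1.33), which was not called. Hsd11b1 (chromosome 1, 193221641 to 193264045), which regenerates active glucocorticoid, had 255, 364 and 118 counts. It was lower in the rLif-labelled library than in the eKO-labelled one, with a log2 ratio of -1.48 (-1.80 to -1.18). Its opponent Hsd11b2 had 1697, 2339 and 1416 counts and was not called in any comparison, with log2 ratios from -0.58 to 0.28. Hsd17b11, which acts on androgens, had 183, 317 and 239 counts and was not called either. Hsd17b1 had 0, 4 and 0 counts in the luminal libraries, below the minimum, and 12, 4 and 6 in the embryo libraries. The Hsd genes that act on fatty acids or bile acids, Hsd17b4, Hsd17b10, Hsd17b12 and Hsd3b7, had between 1288 and 4458 counts in every luminal library. None of these 4 was called, and the largest of their log2 ratios was that of Hsd3b7 in eKO against control, -0.71 (-0.78 to -0.64).

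The P450s of sterol, bile acid and vitamin D metabolism included the highest counts among the called members. Cyp39a1 (chromosome 17, 43667425 to 43751431) hydroxylates oxysterols on the way to bile acids. It had 712 counts in the control-labelled library, 1911 in the eKO-labelled one and 731 in the rLif-labelled one. The eKO library alone was high, and the other two differed by a log2 ratio of -0.01 (-0.16 to 0.14). Against them the eKO library was higher by 1.24 (1.11 to 1.36) over control, and the rLif library was below it at -1.24 (-1.37 to -1.12). Cyp27a1 (chromosome 1, 74713574 to 74737890), the mitochondrial sterol hydroxylase, had 327, 640 and 213 counts. Its ratio of eKO to control, 0.78 (0.59 to 0.98), was within the limit, and that of eKO with rLif to eKO, -1.45 (-1.68 to -1.22), was beyond it. Cyp7b1, the oxysterol hydroxylase that acts after Cyp27a1, had 30, 61 and 37 counts and was not called, nor was the vitamin D hydroxylase Cyp2r1 with 103, 64 and 94. Cyp27b1, which activates vitamin D, had 0, 6 and 2 counts.

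Cyp2 genes of a cluster on chromosome 7 differed in opposite directions. The cluster spans 25802476 to 27158564 and holds 13 members, of which 4 were detected in the luminal layer. At its start Cyp2s1 (25802476 to 25816530) had 878 counts in the control-labelled library and 45 and 40 in the eKO-labelled and rLif-labelled ones. The log2 ratio to control was -4.47 (-4.94 to -4.04) in eKO and -4.50 (-5.00 to -4.04) with rLif, and the eKO libraries differed from each other by -0.03 (-0.68 to 0.62). Cyp2s1 was also the most abundant member in blastocysts. Further along, 3 members with other members between them were high in the eKO-labelled library instead. Cyp2b19 (26757187 to 26772630), an arachidonic acid epoxygenase known from skin, had 14, 97 and 0 counts. Cyp2a5 (26835339 to 26843264), which hydroxylates coumarin, had 54, 168 and 1. Cyp2f2 (27119955 to 27133660), known from the lung for activating naphthalene, had 38, 168 and 39. The log2 ratios of eKO to control were 2.61 (1.79 to 3.53) for Cyp2b19, 1.45 (1.00 to 1.92) for Cyp2a5 and 1.96 (1.44 to 2.51) for Cyp2f2. The call of Cyp2a5 was at the edge of the limit and was lost when libraries were scaled by total counts. With rLif, Cyp2b19 was at least 29.3-fold below the eKO-labelled library (against a floor of 3 counts per library), Cyp2f2 was lower by a log2 ratio of -1.97 (-2.51 to -1.46), and Cyp2a5, with a single count, by -7.25 (-12.56 to -4.75). Cyp2b19 and Cyp2a5 were also below control there, while Cyp2f2 was level with it at 39 against 38 counts. Cyp2a5 is nearly identical to Cyp2a4, so how reads were shared between them is uncertain.

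The stretches upstream of Cyp2b19, Cyp2a5 and Cyp2f2 are shown because the genes lie within 1 cluster and were all highest in the eKO-labelled library. They come from the RefSeq promoter table for GRCm38.p6, which held windows of 300 bases, 250 before to 50 after the start, for 117 of the 156 members. Only bases before the start are printed, 5′ to 3′ on the gene's strand (plus for all), and stretches inside an annotated GENCODE exon were cut off, which left 250 bases for Cyp2b19 (chr7:26756892-26757141), 216 for Cyp2a5 (chr7:26835089-26835304) and 204 for Cyp2f2 (chr7:27119705-27119908). Capitals would mark a match to 1 of 4 motifs, searched on both strands, and these 3 windows held none.
Cyp2b19: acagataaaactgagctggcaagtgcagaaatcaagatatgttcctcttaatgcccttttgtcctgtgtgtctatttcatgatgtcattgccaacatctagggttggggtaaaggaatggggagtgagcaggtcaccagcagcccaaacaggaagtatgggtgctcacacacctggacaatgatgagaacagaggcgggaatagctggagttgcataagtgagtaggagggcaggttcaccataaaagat
Cyp2a5: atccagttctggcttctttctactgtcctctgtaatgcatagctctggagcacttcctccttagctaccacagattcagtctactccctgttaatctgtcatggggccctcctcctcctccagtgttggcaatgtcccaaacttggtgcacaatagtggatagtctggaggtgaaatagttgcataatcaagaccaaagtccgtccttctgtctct
Cyp2f2: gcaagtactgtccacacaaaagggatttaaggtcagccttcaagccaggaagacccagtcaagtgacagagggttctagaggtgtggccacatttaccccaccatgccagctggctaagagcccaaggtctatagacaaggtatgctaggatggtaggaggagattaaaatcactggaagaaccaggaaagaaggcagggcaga
The motifs were TTCNNNGAA (bound by Stat factors), GCGTG (the core bound by the Ahr receptor), ACA and TGT held apart by any 3 bases (the core of progesterone and glucocorticoid response elements) and GGTCA and TGACC held apart by any 3 bases (an estrogen response element). In windows of 300 bases they occurred in 8.30%, 32.4%, 6.85% and 0.0700% of all 32851 promoters, and in 9, 27, 18 and 0 of the 132 windows of members, which is 6.82%, 20.5%, 13.6% and 0%. A match is a description of letters and says nothing about binding.

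Other P450s were called at low counts. Cyp2d22 (chromosome 15, 82370527 to 82380260) had 137, 130 and 48 counts in the luminal libraries, and was lower with rLif than in control by a log2 ratio of -1.56 (-2.06 to -1.07). Cyp2u1, a fatty acid hydroxylase, had 0, 24 and 16 counts and was at least 7.03-fold higher in eKO and at least 5.17-fold higher with rLif than in control. Cyp2j11 had 3, 30 and 4 counts and Cyp2c38 had 0, 11 and 0. Cyp2c44, an epoxygenase of arachidonic acid, ran the other way with 10, 0 and 24. In the Cyp4 family, whose enzymes hydroxylate fatty acids at the end of the chain, Cyp4f39 had 5, 36 and 0 counts, Cyp4x1 had 5, 18 and 0, and Cyp4b1 had 28, 26 and 3. All 3 were lower with rLif than in eKO. Cyp2j11, Cyp2c38, Cyp4f39 and Cyp4x1 reached the minimum of 10 counts only through the eKO-labelled library, so a difference was built into their detection. Without these 4, the members called were 12, 13 and 7 in the comparisons of eKO with control, eKO with rLif with eKO, and eKO with rLif with control, in place of 15, 17 and 7. For Cyp4b1 the log2 ratio was -2.97 (-5.34 to -1.27), which rests on 3 counts in 1 library. The more abundant Cyp4f16, Cyp4f13 and Cyp4v3 had between 130 and 993 counts in each library and were not called. Cyp1b1 (chromosome 17, 79706953 to 79715041), which hydroxylates estrogens and polycyclic hydrocarbons, had 646, 360 and 387 counts. Its log2 ratio of eKO to control, -1.03 (-1.22 to -0.84), had an interval that reached inside the limit. Cyp1a1 had 0 counts in all 3 luminal libraries.

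The Ugt1a genes on chromosome 1 also differed in opposite directions. This locus (88055411 to 88220002) has separate first exons and shared later ones, so each of its 8 genes shared between 57.2% and 72.2% of its exon bases with the others. How shared reads were counted is not stated. Ugt1a5, Ugt1a9 and Ugt1a10 share 2316 bases with the others and had 0 counts, so shared reads were not counted for every gene. The values may rest on the separate first exons and remain uncertain. Ugt1a7c had 474, 232 and 981 counts in the luminal libraries, Ugt1a6a had 615, 471 and 977, and Ugt1a6b had 97, 3 and 157. These 3 genes, whose enzymes conjugate phenols, had their lowest value in the eKO-labelled library and their highest in the rLif-labelled one. With rLif against eKO the log2 ratio was 2.22 (2.01 to 2.43) for Ugt1a7c, 1.19 (1.03 to 1.36) for Ugt1a6a and 5.85 (4.28 to 8.14) for Ugt1a6b, which rests on 3 counts in the eKO library. The call of Ugt1a6a was lost with scaling by total counts. Ugt1a1, which conjugates bilirubin, ran opposite with 25, 109 and 33 counts. It was higher in eKO than in control by 1.94 (1.30 to 2.63) and lower with rLif than in eKO by -1.58 (-2.19 to -1.01). Ugt1a2 had 34, 6 and 10 counts and was lower in eKO than in control by -2.69 (-4.23 to -1.42). Ugt1a5, Ugt1a9 and Ugt1a10 were at 0 in all 6 libraries. Summed over the 8 genes, the locus had 1245, 821 and 2158 counts, a sum that may leave out reads of the shared exons. The summed log2 ratios were -0.79 (-0.92 to -0.66) for eKO against control and 1.54 (1.42 to 1.65) for eKO with rLif against eKO.

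Upstream stretches of Ugt1a7c (chr1:88094751-88095000) and Ugt1a6a (chr1:88134559-88134808), which were high with rLif, and of Ugt1a1 (chr1:88211709-88211958), which was high in eKO, are shown as 250 bases each on the plus strand, since each first exon of the locus has a start of its own. In Ugt1a6a the capitals mark a TTCNNNGAA match that begins 121 bases before the start. In Ugt1a7c they mark an ACA and TGT pair that begins 103 bases before the start. Ugt1a1 had no match.
Ugt1a7c: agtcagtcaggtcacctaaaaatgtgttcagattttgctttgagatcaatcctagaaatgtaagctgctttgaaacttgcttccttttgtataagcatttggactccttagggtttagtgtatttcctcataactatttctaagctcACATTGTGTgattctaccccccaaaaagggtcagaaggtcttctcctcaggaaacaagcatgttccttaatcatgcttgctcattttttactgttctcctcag
Ugt1a6a: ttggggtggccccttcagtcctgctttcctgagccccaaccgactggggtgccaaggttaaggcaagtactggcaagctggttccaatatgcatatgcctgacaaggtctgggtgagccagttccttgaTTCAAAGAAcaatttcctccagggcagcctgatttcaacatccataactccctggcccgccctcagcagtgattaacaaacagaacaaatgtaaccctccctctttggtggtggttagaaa
Ugt1a1: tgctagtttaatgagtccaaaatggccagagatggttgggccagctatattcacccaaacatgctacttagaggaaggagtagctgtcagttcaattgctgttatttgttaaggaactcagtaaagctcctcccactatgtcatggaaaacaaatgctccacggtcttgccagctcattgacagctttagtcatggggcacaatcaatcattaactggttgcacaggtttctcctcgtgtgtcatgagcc

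**Figure D2:**
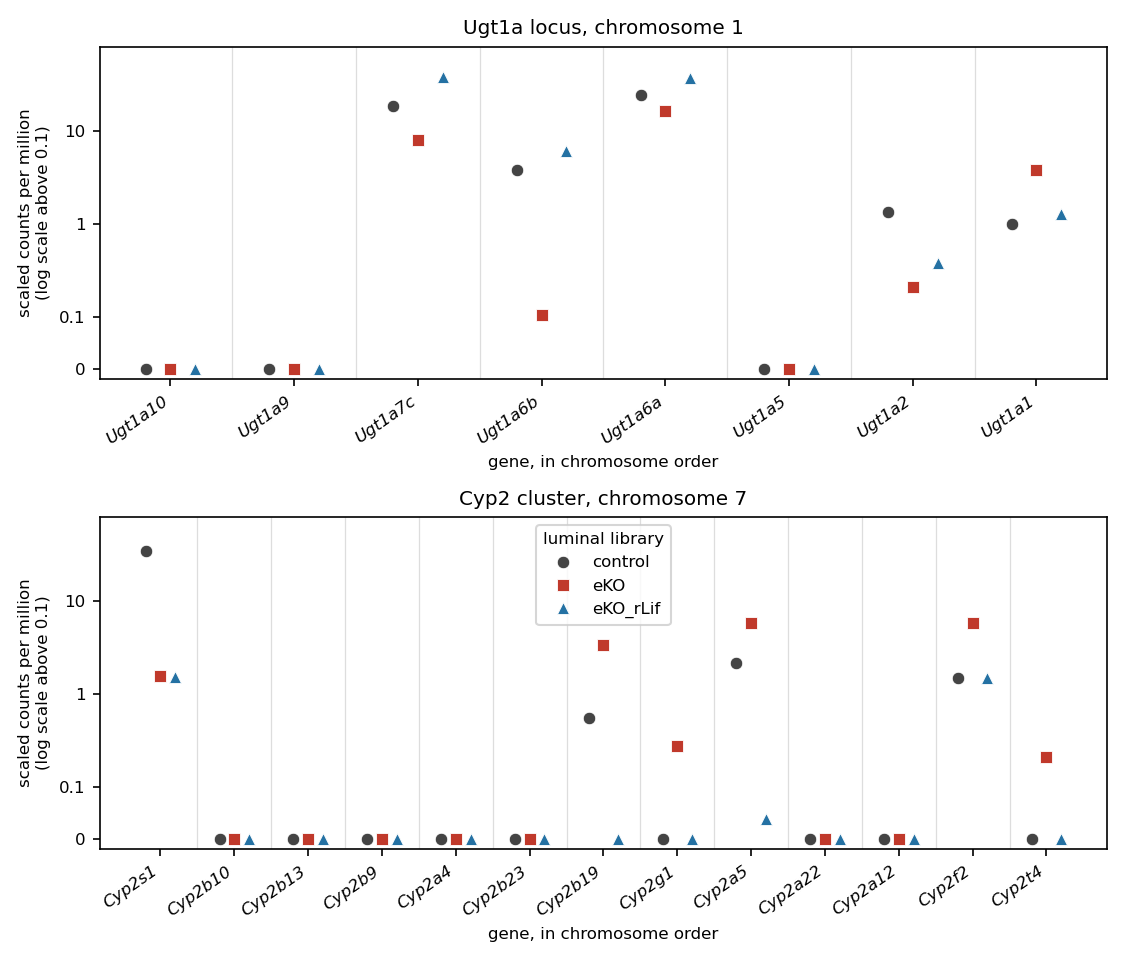
Scaled CPM (y axis, log scale above 0.1) of the 8 Ugt1a genes and the 13 members of the Cyp2 cluster in chromosome order, 1 point per luminal library and no error bars since each group is 1 library. Ugt1a7c, Ugt1a6b and Ugt1a6a are lowest in the eKO-labelled library while Ugt1a1 is highest there, and Cyp2s1 is high in the control where Cyp2b19, Cyp2a5 and Cyp2f2 are below eKO.

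Among the sulfotransferases the abundant ones were not called. Sult1d1 (chromosome 5, 87554650 to 87569006) had 18429, 17346 and 15001 counts, the largest of any member, and its log2 ratios ran from -0.34 to -0.07. Sult1a1 had 1480, 2687 and 1207 counts. Its ratio of eKO with rLif to eKO, -1.01 (-1.11 to -0.91), had an interval reaching inside the limit, and it was called when libraries were scaled by total counts. Sult2b1 (chromosome 7, 45729983 to 45759555), which sulfates cholesterol and pregnenolone, had 73, 250 and 109 counts and was higher in eKO than in control by 1.59 (1.21 to 1.99). Sult5a1 had 70, 181 and 53 counts and was lower with rLif than in eKO by -1.63 (-2.10 to -1.18). Both had their highest value in the eKO-labelled library. Sult1b1, Sult1c2, Sult4a1 and Sult6b1 had between 7 and 72 counts per library and were not called. Ugt8a, which makes galactosylceramide, had 2, 15 and 7 counts and was not called either.

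**Figure D3:**
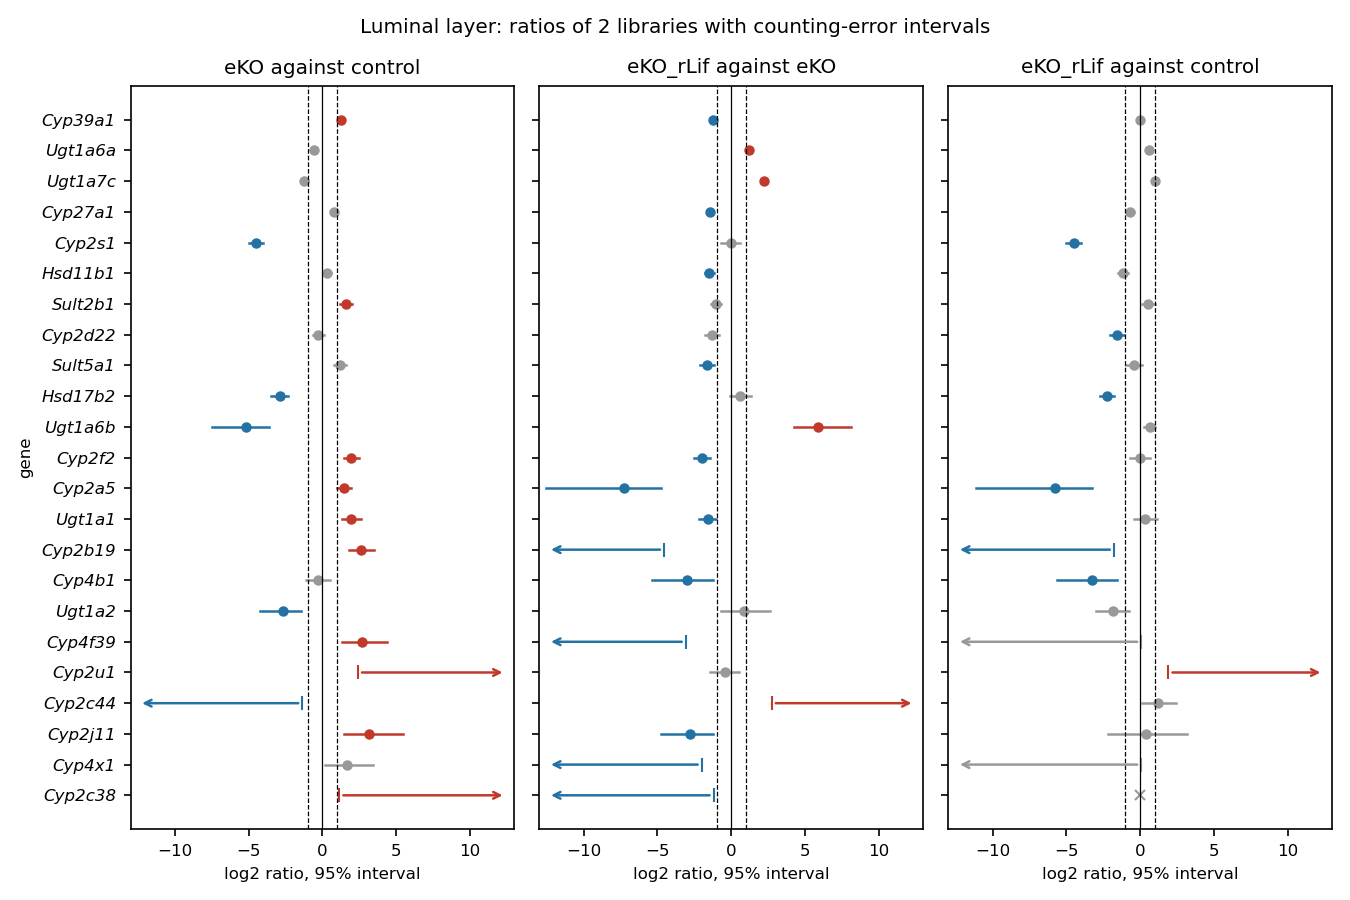
Log2 ratios of 2 luminal libraries (x axis) with exact 95% counting-error intervals for the 23 called members, with dashed lines at the limits of -1 and 1. Red marks a call higher, blue a call lower and grey no call, an arrow starts at the bound where 1 library had 0 counts, and a cross marks 0 counts in both. Cyp2s1 and Hsd17b2 are blue in both comparisons with control, and Cyp39a1 is red, then blue, then on 0.

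In blastocysts fewer members differed, and those that did had few reads. Blastocysts from eKO uteri against control had 2 members higher and 2 lower of 47 tested, with 1.29% of all genes called higher and 1.86% lower. With scaling by total counts this split was 1 higher and 2 lower. Blastocysts from rLif-treated eKO uteri against untreated ones had 0 higher and 3 lower, against 0.914% and 2.83% of all genes. Those from rLif-treated eKO uteri against control had 1 higher and 4 lower, against 0.948% and 3.99%. The median log2 ratios of the members were -0.03, -0.09 and -0.24 and those of all genes lay within 0.01 of 0. The highest count of any called member was 37, and in 9 of these 12 calls 1 library was at 0. In all, 9 of the 47 members were called in at least 1 comparison and 38 in none, with no such share computed for all genes. Of the 9, Hsd17b2, Ugt2b35, Cyp2b19, Ugt1a7c and Cyp2r1 reached the minimum of 10 counts only through their highest library, so a difference was built into their detection. Without these 5, the calls were 2, 1 and 2 in place of 4, 3 and 5.

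Hsd17b2 was among them, with 28 counts in the control library and 0 in both eKO libraries, so it was at least 9.57-fold lower without rLif and at least 9.52-fold lower with it. Ugt2b35 (chromosome 5, 87000860 to 87013274) had the same pattern with 26, 0 and 0. Cyp2a4, which hydroxylates steroids, had 0, 11 and 21 counts, and is uncertain for its likeness to Cyp2a5. Cyp4f40 had 8, 36 and 17 counts and was higher in eKO than in control by a log2 ratio of 2.13 (1.00 to 3.45), a call lost with scaling by total counts. Cyp27a1 had 29, 25 and 6 counts and was lower with rLif than in control by -2.30 (-3.86 to -1.01), and Cyp2b19 had 9, 2 and 0. Sult1d1 with 22, 37 and 5 counts, Ugt1a7c with 4, 12 and 0 and Cyp2r1 with 3, 10 and 0 were lower with rLif than in eKO. Sult1d1 is the most abundant luminal member. Some listed markers of other cell types also differed between these libraries, and others did not. The 5 immune markers in the tables summed to 74.6, 128 and 24.8 CPM in these 3 libraries, with Lyz2 and Csf1r called lower with rLif than in eKO and Lyz2 and C1qa lower with rLif than in control. The 10 stromal markers summed to 159, 161 and 152 CPM. Of these, Vim and Col1a2 were called lower in eKO than in control, and Col3a1, Dcn, Col1a2, Hoxa10 and Hoxa11 lower with rLif than in control. Of the 9 luminal epithelial markers tested, only Krt19 was called, lower than control in both eKO libraries. The red cell gene Alas2 was lower with rLif than in control, while Hba-a1 and Hba-a2 were at 0 in all 3 embryo libraries. The 6 endothelial markers summed to 69.3, 69.7 and 94.6 CPM, with Kdr lower than control in both eKO libraries. The part of other cells in these values was not tested.

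The abundant members of blastocysts were not called. Cyp2s1 had 6911, 8001 and 12516 counts in the control, eKO and rLif libraries. It was highest with rLif, at a log2 ratio to control of 0.83 (0.79 to 0.87), inside the limit. Hsd17b6 had 554, 898 and 533 counts, with its highest value in blastocysts from untreated eKO uteri. Hsd17b12 had 2543, 2552 and 2593 counts, nearly the same in all 3. Hsd17b14, a dehydrogenase of the same family, had 176, 190 and 192 counts. Cyp4f39, which hydroxylates the ultra-long fatty acids of skin lipids, had 296, 261 and 382. Cyp1a1 had 377, 230 and 176, and its log2 ratio of rLif to control, -1.13 (-1.39 to -0.87), reached inside the limit.

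**Figure D4:**
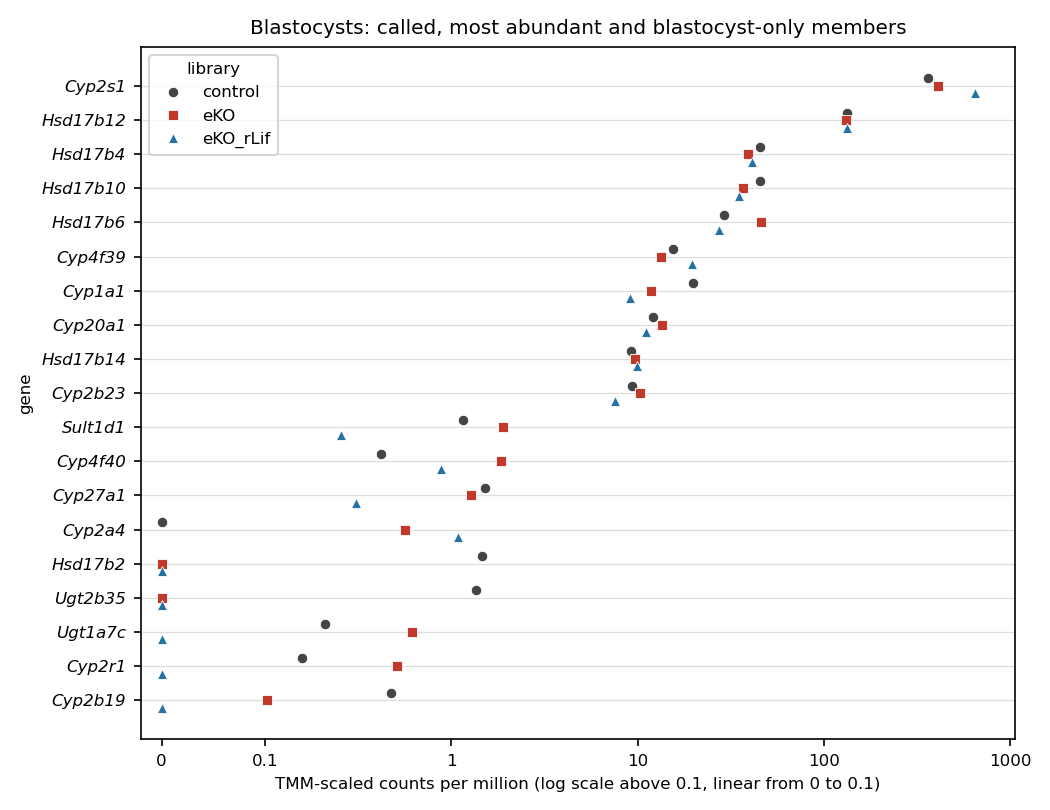
Scaled CPM (x axis, log scale above 0.1 and linear below) in the 3 embryo libraries for the 9 called members, the 8 members with the highest level per length, Cyp1a1 and Cyp2b23, 1 point per library and no error bars since each group is 1 library. The points of abundant members such as Hsd17b12 and Hsd17b14 almost coincide, whereas called members such as Hsd17b2 and Ugt2b35 lie at low values with points at 0.

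The tissues drew on different members of the same families. With all 6 libraries scaled together, the control-labelled luminal library against the control embryo library had 29 members higher and 11 lower of 72 tested, against 27.3% and 25.4% of all genes. The median log2 ratio was 0.66 for the members and 0.06 for all genes. A gene was kept here with at least 10 counts over the 3 libraries of either tissue. A difference was thus partly built in for genes detected in 1 tissue only. Among the 72 members, 25 were detected in the luminal layer only and 15 in blastocysts only. Of the 16911 genes kept, these were 2038 and 1217. The 2 tissues differ in collection as well as in cell type, and these cannot be told apart. Sult1d1 had 18429 counts in the luminal library and 22 in the embryo library, a log2 ratio of 9.45 (8.85 to 10.13). Cyp2j6, an epoxygenase, had 703 and 2 counts, a log2 ratio of 8.20 (6.34 to 11.25). Sult1a1 was higher in the luminal library by 7.95 (6.73 to 9.58). On the other side, Hsd17b6 had 2 counts in the luminal library and 554 in the embryo library, a log2 ratio of -8.37 (-11.42 to -6.51). Hsd17b14 stood at -6.72 (-9.77 to -4.84), Cyp4f39 at -6.15 (-7.78 to -4.91) and Cyp2s1, with 878 against 6911 counts, at -3.23 (-3.34 to -3.13). Hsd17b12, with 2756 and 2543 counts, and Hsd17b4 differed little, at -0.14 (-0.22 to -0.06) and 0.41 (0.28 to 0.53).

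Some members were seen in a single tissue. In all 3 luminal libraries 9 members detected in blastocysts were at 0, and in all 3 embryo libraries 15 members detected in the luminal layer were at 0. Their summed counts in the other tissue ran from 10 to 2063, and the same pattern was not counted for all genes. By the limit of 10 counts, 25 of the 57 luminal members were not detected in blastocysts, against 2038 of 15694 genes. Likewise 15 of the 47 blastocyst members were not detected in the luminal layer, against 1217 of 14873 genes. Cyp1a1 and Cyp1b1 divided between the tissues. Cyp1b1 had 646, 360 and 387 counts in the luminal libraries and 0 in the embryo libraries, where 3 counts would be the floor, so it was at least 180-fold higher in the luminal control. Cyp1a1 (chromosome 9, 57687928 to 57703824), the classic target of the Ahr receptor, was at least 150-fold higher in the embryo control. In the Cyp2 cluster on chromosome 7, Cyp2b23 had 177, 200 and 147 counts in blastocysts and 0 in each luminal library, a difference of at least 70.6-fold between the controls. Ugt1a6a, with 2063 counts over the luminal libraries, was at 0 in the embryo libraries. The upstream stretch of Cyp1a1 is shown because the gene was seen in blastocysts only. It is chr9:57697363-57697612 on the plus strand, 250 bases before the RefSeq start at 57697613, which lies inside the wider gene span of the count table. Capitals mark a GCGTG match that begins 54 bases before the start.
Cyp1a1: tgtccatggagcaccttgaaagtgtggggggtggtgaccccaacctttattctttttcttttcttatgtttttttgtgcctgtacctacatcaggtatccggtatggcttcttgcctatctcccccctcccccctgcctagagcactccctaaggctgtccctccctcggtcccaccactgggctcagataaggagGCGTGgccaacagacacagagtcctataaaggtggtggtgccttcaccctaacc

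**Figure D5:**
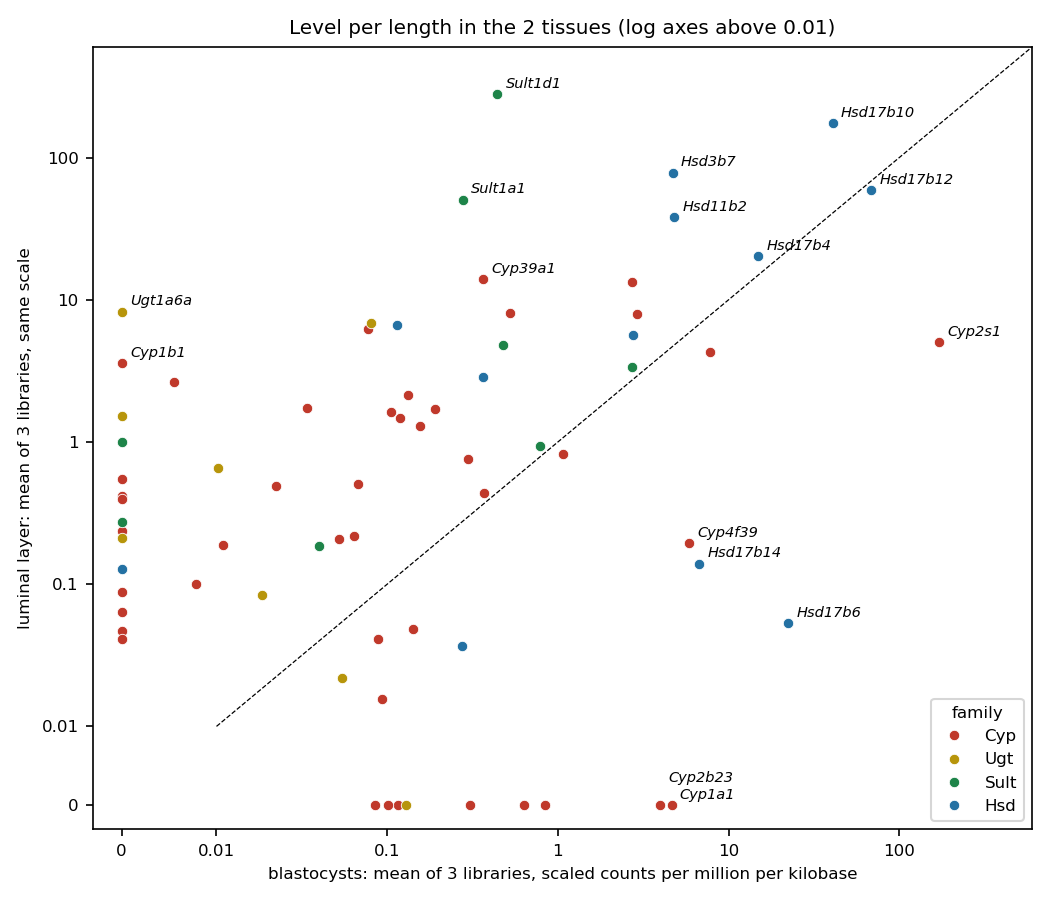
Mean level of the 72 detected members over the 3 libraries of each tissue, in scaled CPM per kilobase of exon (log axes above 0.01), coloured by family, with a dashed line of equal level. Sult1d1, Sult1a1 and Cyp39a1 lie far above the line, Cyp2s1, Hsd17b6 and Cyp1a1 far below it, and Hsd17b12 and Hsd17b4 near it.

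Genes that work with these enzymes were read from a list of 47, of which 38 were tested in the luminal layer and 37 in blastocysts. In the luminal layer, 8 of the 38 were higher and 3 lower in the eKO-labelled library than in the control-labelled one, against 8.08% and 9.15% of all genes. With rLif, 4 were higher and 8 lower than in eKO, against 7.88% and 7.77%, and 3 were higher and 2 lower than in control, against 4.12% and 5.04%. Ces1d (chromosome 8, 93166072 to 93197804), a carboxylesterase of drugs and lipids, had 227, 6171 and 573 counts in the luminal libraries. It was higher in eKO than in control by a log2 ratio of 4.58 (4.39 to 4.78). Of the 8 listed aldo-keto reductases of the Akr1c cluster on chromosome 13, which reduce steroids and other carbonyls, 4 were called higher in the eKO-labelled library than in control. Akr1c13 had 71, 997 and 297 counts, Akr1c19 had 209, 1670 and 520, Akr1c12 had 7, 46 and 8 and Akr1c21 had 0, 22 and 2. Akr1c14, with 23, 68 and 21 counts, was not called. Akr1c18, which inactivates progesterone, had 44, 26 and 27 and was not called either, and Akr1c6 and Akr1c20 were at 0. These genes are close paralogs, so their counts are uncertain. The 4 called genes, and Ces1d, were lower with rLif than in eKO. For Akr1c13, Akr1c19 and Ces1d the value with rLif was still above control, at log2 ratios of 2.02 (1.64 to 2.41), 1.27 (1.04 to 1.51) and 1.29 (1.07 to 1.52). Srd5a1 (chromosome 13, 69573449 to 69611463), which reduces progesterone and testosterone, ran the other way with 8256, 2435 and 3894 counts. It was below control in both eKO libraries, by -1.95 (-2.01 to -1.88) and -1.13 (-1.18 to -1.07). The cholesterol carrier Stard4 had 689, 260 and 507 counts and was lower in eKO than in control by -1.59 (-1.80 to -1.38). The Ahr target Tiparp had 1119, 663 and 1691 counts and was higher with rLif than in eKO by 1.49 (1.36 to 1.62), but shares exon bases with another gene and is uncertain. Nat1, which acetylates aromatic amines, had 10, 12 and 0 counts. In blastocysts 0 of the 37 were higher and 2 lower in eKO than in control, against 1.29% and 1.86% of all genes. With rLif, 1 was higher and 0 lower than in eKO, against 0.914% and 2.83%, and 2 were higher and 1 lower than in control, against 0.948% and 3.99%.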

How the data were processed

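Each of the 6 libraries came from pooled material, 1 library per group, and groups were taken from the sample labels. The authors made SMART-seq v4 libraries, aligned reads to GRCm38/mm10 with HISAT2 and counted them with featureCounts (Subread 2.0.0). The deposited values were raw read counts per gene with exon lengths. The study's methods call the output RPKM, but every value was a whole number and totals differed between libraries. The annotation release, the strand setting and the handling of reads in shared exons are not given in the sources used here, so overlapping genes (2814 of 23420) are uncertain.

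Genes with at least 10 counts over the 3 libraries of a tissue were kept. For the comparison of tissues, 10 counts in either tissue sufficed. TMM factors (edgeR 4.0.16 under R 4.3.3) scaled the libraries within a tissue or over all 6 libraries for the comparison of tissues. The ratio of 2 libraries has an exact 95% Clopper-Pearson interval, which covers counting error only, since PCR reads without molecular identifiers are not independent molecules. A gene was called when the interval lay wholly beyond a log2 ratio of -1 or 1. Against a library at 0 counts, folds are lower bounds computed with a floor of 3 counts in that library. Medians of log2 ratios used CPM plus 0.5. Levels were compared between genes only per kilobase of exon. The call rule was tested on simulated data with known changes. Those data held counting error only, with large changes placed in genes of high counts. The test therefore cannot show how the rule performs with variation between pools, or how it finds changes at low counts.

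The members, the gene lists and the rules were chosen with earlier results of these data known. Named were the called members with the interval bound farthest from 0 (up to 8 per direction in each luminal comparison, up to 5 elsewhere), the 8 highest levels per length in each tissue, fixed enzymes of steroid and xenobiotic metabolism, and up to 6 called partner genes per luminal comparison. Other members are named as values of their group and were chosen after their values were seen. Alternatives were DESeq2 1.42.0 size factors, total counts, other count minimums and limits, edgeR's exact test with the study's limits at an assumed dispersion of 0.1, and leaving out members with overlapping exons. The Cyp2s1 upstream stretch was not printed because it lay in annotated exons.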

Additional observations from a re-analysis of the deposited data

Results flagged for a closer look

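Ugt1a7c differed between the tissues in the comparison of rLif-treated with untreated eKO. In the luminal layer it was called higher, at a log2 ratio of 2.22 (232 counts in the eKO-labelled library and 981 in the rLif-labelled one). In blastocysts it was called lower, with 12 counts in the eKO library and 0 in the rLif library, which gives a log2 ratio of -1.99 against a floor of 3 counts. The luminal ratio and this floor-based value lie 4.21 apart on the log2 scale, a distance that carries the counting error of both and is not a bound. With 4, 12 and 0 counts in the embryo libraries, the gene reached the minimum of 10 counts in blastocysts only through the eKO library, so a fall from that library was built into its detection. With 1 library per group the difference between tissues was not tested. The gene shares 70.3% of its exon bases with the other Ugt1a genes, and the blastocyst value rests on 12 reads.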

How the results depend on the processing

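No paired analysis was possible because each group was 1 library. DESeq2 size factors changed no count of called members by over 1.5 times and no direction was reversed under any setting tried. Scaling by total counts shifted all genes by -0.11 (log2) for luminal eKO with rLif against eKO and by -0.18 for eKO with rLif against control. It gained Ugt1a7c in eKO against control (-1.29), Sult1a1 in eKO with rLif against eKO (-1.12), and Hsd11b1 (-1.33) and Cyp2j9 (-1.90) in eKO with rLif against control, and lost Cyp2a5, Ugt1a6a, Cyp4f40 and, between tissues, Sult2b1. DESeq2 size factors lost Cyp2ab1 and Cyp4f40 between tissues. For the 3 luminal comparisons (eKO against control, eKO with rLif against eKO, eKO with rLif against control), the members called, 15, 17 and 7, became 43, 40 and 31 when any interval beyond 0 counted, 4, 6 and 2 with a log2 limit of 2, and 6, 7 and 3 under edgeR's exact test at the assumed dispersion. For the same comparisons in blastocysts, 4, 3 and 5 became 13, 16 and 17 with a limit of 0, 2, 0 and 3 with a limit of 2, 2, 0 and 3 under edgeR's exact test, and 1, 1 and 1 with at least 50 counts. Detected blastocyst members were 75 with no minimum and 23 with 50 counts. Without members with overlapping exons the luminal counts were 12, 13 and 7. Without members that reached the minimum only through their highest library, an alternative chosen after seeing the data, the luminal counts were 12, 13 and 7 and the blastocyst counts 2, 1 and 2. Depth limits the called blastocyst members, none of which had more than 37 counts in a library of the comparison. Shares of all genes under these alternative settings are not given here. The counts therefore describe how the calls depend on the setting, and not how the members compare with all genes.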
